A study of Mus musculus with 4 samples.

Results

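The 6 genes described here belong to the side paths that branch off glycolysis: Akr1b3 and Sord of the polyol path, Gfpt1 and Ogt of the hexosamine path, Glo1 of methylglyoxal disposal, and Prkcb, a kinase that responds to diacylglycerol. They were taken by symbol from the 55357 genes of the deposited matrices. The study collected mouse retina in 4 single-cell libraries, 2 labelled Diabetic and 2 labelled Control, and examined the blood-retina barrier in diabetic retinopathy. Retinal cells were enriched with beads against CD31, an endothelial surface protein, and run on the 10x Chromium 3′ chemistry, in which each RNA molecule is tagged with a unique molecular identifier (UMI). Strain, age, sex, genotype and the diabetes model were not given in the sources used here, and neither were the animals behind each library. The p-values for Diabetic against Control within a cell class therefore measure the spread between libraries, which may be technical. Contrasts between classes, and differences of the Diabetic effect between classes, were fitted with library as a term. Their p-values measure the spread left among the sums of class and library.

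Aldose reductase, encoded by Akr1b3 in the mouse, reduces glucose to sorbitol, and sorbitol dehydrogenase, encoded by Sord, oxidises sorbitol to fructose. Gfpt1 encodes the rate-limiting amidotransferase of the hexosamine path, whose end product UDP-GlcNAc is attached to intracellular proteins by the transferase OGT. Glyoxalase 1, encoded by Glo1, removes methylglyoxal, a reactive by-product of triose phosphates that otherwise forms glycation products. PKC-beta, encoded by Prkcb, is a calcium- and diacylglycerol-dependent kinase. All of these paths have long been studied as routes by which high glucose injures retinal vessels.

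The Diabetic libraries held 58792636 and 41239892 UMIs and the Control libraries 54901304 and 29792902. Between 5 and 9 barcodes were shared by any pair of libraries. Although the label gives CD31+ cells, rods, the dim-light photoreceptors, made up 45.0% and 43.1% of passing cells in Diabetic and 58.5% and 50.6% in Control, against 16.1% and 15.9% endothelial cells in Diabetic and 9.60% and 9.67% in Control. Cells were placed in classes by marker genes that include none of the 6 genes, and tests were run on the 7 classes that reached 20 cells in each library: 2499 endothelial cells, 370 pericytes or smooth muscle cells, 163 microglia or macrophages, 9280 rods, 169 cones, 187 bipolar cells and 798 Müller glia. UMIs of each class were summed per library and are given as CPM, the UMIs of a gene scaled to a fixed total for that class and library. Rod markers stood at 35.03% to 46.9% of their rod level in cones, whose gate allowed up to 400 rod-marker UMIs per 10000, and at 5.73% to 17.4% in the other 5 classes.

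No class had the highest level of all 6 genes. By mean level Akr1b3 was highest in microglia or macrophages, which were not called different from pericytes or smooth muscle. Glo1 was highest in cones and bipolar cells, and Ogt in cones. Gfpt1 was highest in rods and Müller glia, and Prkcb in microglia or macrophages and bipolar cells. Endothelial cells led for none of the 6 genes. Of the 5 genes with enough counts to be tested between classes, 13 differences from endothelial cells over 6 contrasts were higher in the other class and 6 were lower (edgeR quasi-likelihood test, Benjamini-Hochberg adjusted p under 0.05). The shares of all genes called in each contrast are given beside the counts.

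Müller glia had 4 of the 5 genes higher than endothelial cells and 1 lower, while 32.3% and 34.2% of all 8637 genes tested were higher and lower. Bipolar cells had 3 higher and 0 lower, against 27.3% and 32.9% of all genes. Rods had 2 higher and 2 lower, against 40.8% and 39.9%. Cones had 2 higher and 2 lower, against 26.4% and 35.1%, and microglia or macrophages 2 higher and 1 lower, against 16.4% and 22.9%. In pericytes or smooth muscle none of the 5 genes was called in edgeR, where 14.3% and 19.8% of all genes were; 2 of them, Glo1 and Prkcb, had an unadjusted p under 0.05, both with the lower level in pericytes, and no other tool was run for contrasts between classes. With library totals alone as the scale, the median of all genes moved by 0.15 to 0.37 upward on the log2 scale in 5 of the classes and by -0.20 in microglia or macrophages. The share of calls that were higher was then 58.0% in bipolar cells, 58.1% in cones, 30.4% in microglia or macrophages, 59.1% in Müller glia, 53.2% in pericytes or smooth muscle and 56.6% in rods, against 45.3%, 42.9%, 41.7%, 48.6%, 41.9% and 50.6% with edgeR's TMM scaling. Under that scale the counts for the 5 genes became 4 higher and 0 lower in bipolar cells, 3 and 1 in cones, and 3 and 2 in rods, and were the same in the other 3 classes.

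**Figure D1:**
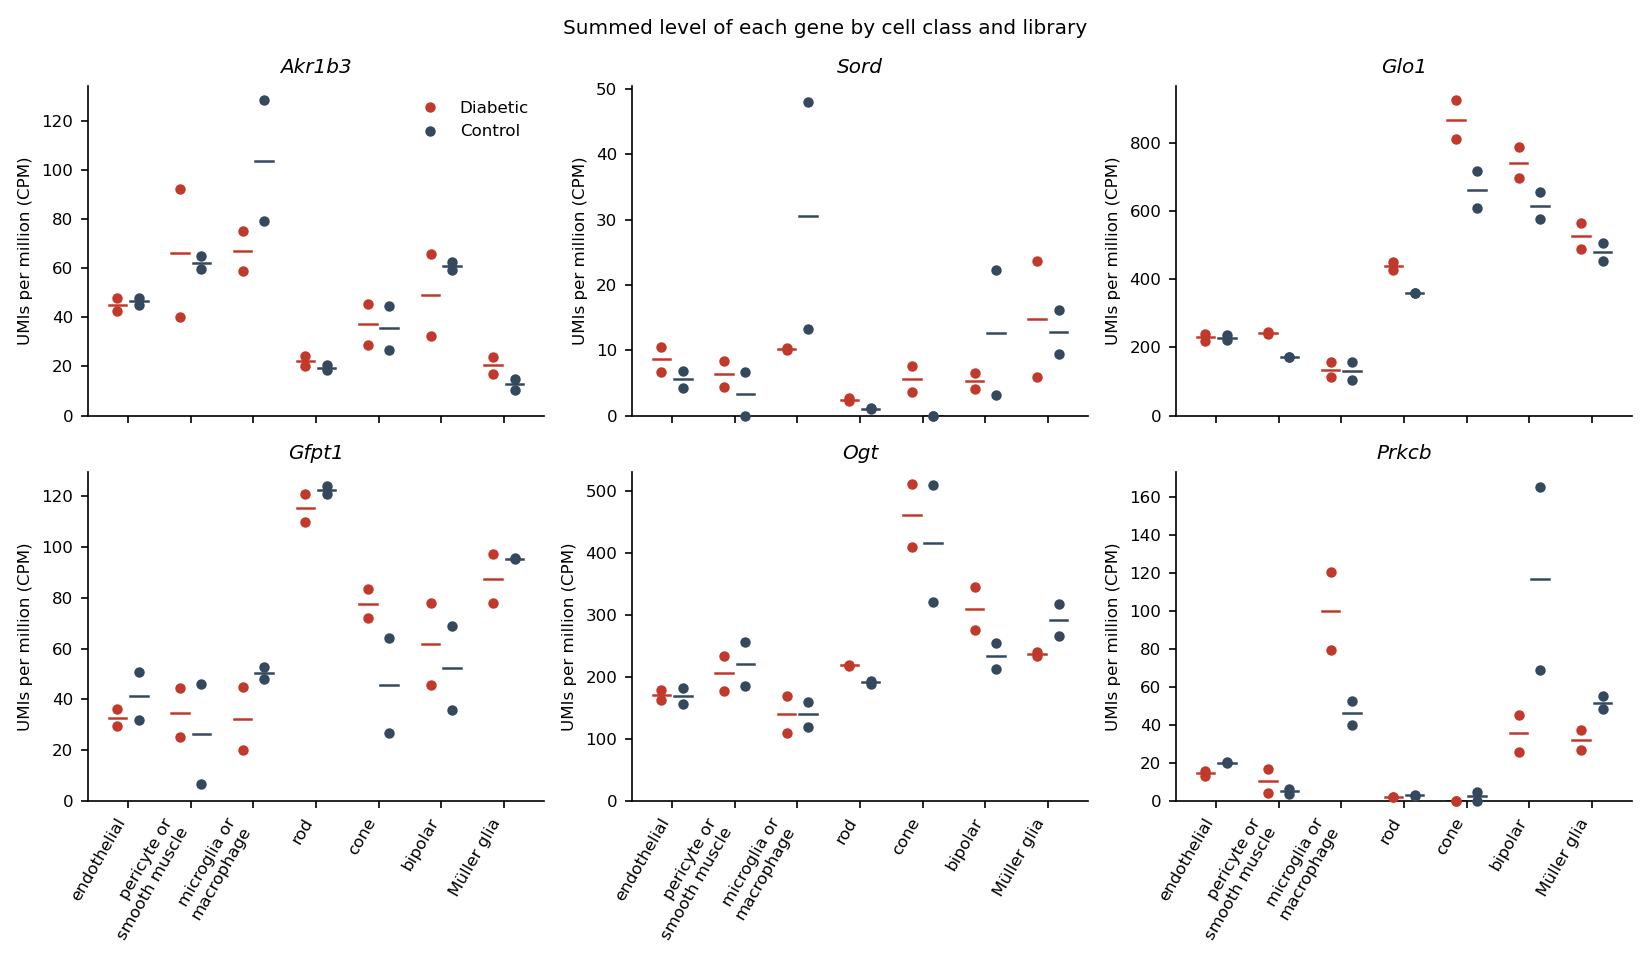
Level of each gene in CPM (vertical axes, from 0) in 7 cell classes, with 1 point for each of the 2 Diabetic (left, red) and 2 Control (right, dark) libraries and a line at each group's mean. Glo1 is highest in cones and bipolar cells, Ogt in cones, Gfpt1 in rods, and Prkcb in microglia or macrophages and bipolar cells.

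Akr1b3 lies on chromosome 6 from 34302434 to 34317478 on the minus strand (GRCm38, as are all positions here). In microglia or macrophages, the resident phagocytes, it had 58.7 and 75.3 CPM in Diabetic and 128 and 79.2 CPM in Control. In endothelial cells it had 42.4 and 47.7 CPM in Diabetic and 45.1 and 48.0 CPM in Control. The 4 libraries thus lay close together in endothelial cells, and every microglial value lay above every endothelial one. The difference was 1.00 ± 0.25 on the log2 scale (standard error; edgeR adjusted p = 0.000986). The order of mean levels was microglia or macrophages at 85.4 ± 29.9 CPM (SD, n = 4 libraries), pericytes or smooth muscle at 64.2 ± 21.5, bipolar cells at 55.0 ± 15.2, endothelial cells at 45.8 ± 2.59, cones at 36.4 ± 10.00, rods at 20.9 ± 2.305 and Müller glia at 16.6 ± 5.60. Neighbours in that order were not called different, with the exception of endothelial cells over cones (0.73 ± 0.29, edgeR adjusted p = 0.0262), a call lost without Control 2 (0.63, adjusted p = 0.107) or Diabetic 1 (0.64, adjusted p = 0.107) and with library totals alone (0.35, adjusted p = 0.311). With classes from clusters, bipolar cells lay under endothelial cells by -0.78 (adjusted p = 5.08e-06). Rods and Müller glia lay well under endothelial cells, by log2 differences of -1.28 ± 0.13 (edgeR adjusted p = 4.12e-12) and -1.68 ± 0.22 (adjusted p = 5.63e-09).

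Sord, on chromosome 2 from 122234749 to 122265340 on the plus strand, was scarce in every class and fell under the count filter of the contrasts between classes. Among the tested classes its highest mean was 20.4 ± 18.5 CPM, in microglia or macrophages. This mean rested on 3 and 2 UMIs in Diabetic and 6 and 1 UMIs in Control. In Müller glia, the radial glia that span the retina, Sord had 5.98 and 23.7 CPM in Diabetic and 9.42 and 16.1 CPM in Control. The groups overlapped there, and 6 of the 14 UMIs of Diabetic 2 came from 1 cell. Endothelial cells held 6.65 and 10.6 CPM in Diabetic and 4.27 and 6.85 CPM in Control, and bipolar cells, pericytes and cones averaged 9.01, 4.86 and 2.79 CPM. Rods had the lowest mean, 1.76 ± 0.83 CPM (SD, n = 4), yet held 38.8% to 62.8% of the gated Sord UMIs of a library because they contributed 83.4% to 90.4% of all gated UMIs. Differences between classes were not tested for Sord.

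Gfpt1, on chromosome 6 from 87042846 to 87092197 on the plus strand, was highest in rods, with 110 and 121 CPM in Diabetic and 124 and 121 CPM in Control. Müller glia followed with 97.2 and 77.9 CPM in Diabetic and 95.3 and 95.5 CPM in Control. Endothelial cells had 36.2 and 29.5 CPM in Diabetic and 50.8 and 32.0 CPM in Control. Rods and endothelial cells did not overlap in any library, and rods were higher by 1.54 ± 0.12 on the log2 scale (edgeR adjusted p = 2.02e-15). Rods over Müller glia came to 0.41 ± 0.13 (edgeR adjusted p = 0.00606), a call that was lost with a stricter marker gate (0.30, adjusted p = 0.198). Müller glia over cones came to 0.74 ± 0.25 (edgeR adjusted p = 0.0128; 0.52 and adjusted p = 0.0959 without Control 2), and with classes from clusters the sign turned (-0.24, adjusted p = 0.0659). Cones at 61.6 ± 24.5 CPM, bipolar cells at 57.0 ± 19.8, microglia or macrophages at 41.5 ± 14.6, endothelial cells at 37.1 ± 9.52 and pericytes or smooth muscle at 30.5 ± 18.6 (SD, n = 4 each) were not called different from their neighbours. If rod RNA entered the droplets of other classes in proportion to the rod markers, it would supply 22.9% to 29.2% of the endothelial Gfpt1 level, 24.5% to 131.7% of the pericyte level and 67.8% to 158.3% of the cone level. The part of rod RNA in the low end of this order was not tested further.

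Ogt, on chromosome X from 101640060 to 101684351 on the plus strand, peaked in cones, the daylight photoreceptors, with 511 and 409 CPM in Diabetic and 510 and 321 CPM in Control. In endothelial cells it had 180 and 164 CPM in Diabetic and 182 and 156 CPM in Control. Rod RNA, by the same reckoning, would supply 14.5% to 24.9% of the cone Ogt level. Every cone library exceeded every endothelial library, by 1.01 ± 0.14 on the log2 scale (edgeR adjusted p = 2.49e-08). Cones also exceeded bipolar cells, next in the order, by 0.65 ± 0.16 (edgeR adjusted p = 0.00144), though not without Control 1 (0.43, adjusted p = 0.0872), with a stricter gate (0.44, adjusted p = 0.0722) or with classes taken from clusters (0.18, adjusted p = 0.132). Below cones, no neighbouring pair was called: the means were 272 ± 55.3 CPM in bipolar cells, 264 ± 38.0 in Müller glia, 213 ± 38.1 in pericytes or smooth muscle, 205 ± 15.7 in rods, 170 ± 12.6 in endothelial cells and 140 ± 29.4 in microglia or macrophages (SD, n = 4 each). Microglia or macrophages against endothelial cells came to -0.06 ± 0.18 (edgeR adjusted p = 0.824).

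Glo1, on chromosome 17 from 30584936 to 30626871 on the minus strand, had its highest means in cones and bipolar cells. Cones had 809 and 925 CPM in Diabetic and 609 and 716 CPM in Control, and bipolar cells, the interneurons that receive photoreceptor input, had 695 and 787 CPM in Diabetic and 575 and 655 CPM in Control. Endothelial cells had 239 and 220 CPM in Diabetic and 221 and 235 CPM in Control. The cone and bipolar values lay far above the endothelial ones in every library, and rod RNA would supply 17.7% to 24.7% of the cone level. Cones exceeded endothelial cells by 1.36 ± 0.12 on the log2 scale (edgeR adjusted p = 7.41e-14) and bipolar cells by 1.29 ± 0.12 (adjusted p = 2.38e-13), and these 2 leading classes were not called different from each other (0.07 ± 0.12, adjusted p = 0.745). Müller glia at 503 ± 47.3 CPM stood below bipolar cells (0.33 ± 0.12, edgeR adjusted p = 0.0198) and above rods at 399 ± 46.3 (0.31 ± 0.11, adjusted p = 0.00728), and rods stood above endothelial cells (0.65 ± 0.10, adjusted p = 3.38e-07). The step from bipolar cells to Müller glia was lost without Control 1 (0.34, adjusted p = 0.0653), Control 2 (0.33, adjusted p = 0.0721) or Diabetic 2 (0.24, adjusted p = 0.164) and was -0.03 with classes from clusters (adjusted p = 0.852), and that from Müller glia to rods without Control 2 (0.26, adjusted p = 0.0780). Pericytes or smooth muscle at 207 ± 40.2 CPM and microglia or macrophages at 133 ± 28.0 (SD, n = 4) closed the order, with microglia or macrophages under endothelial cells by a log2 difference of -0.64 ± 0.16 (edgeR adjusted p = 0.00141). The processed pseudogene Glo1-ps on chromosome 2 had its own row with at most 10.2 CPM on average in any class, and how reads that fit both copies were counted is not given in the sources used here.

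Prkcb, on chromosome 7 from 122288751 to 122634402 on the plus strand, was unevenly spread over the classes. Microglia or macrophages had 79.5 and 120 CPM in Diabetic and 40.1 and 52.8 CPM in Control. Bipolar cells had 45.2 and 26.0 CPM in Diabetic and 68.7 and 165 CPM in Control. Müller glia had 37.4 and 27.1 CPM in Diabetic and 48.2 and 55.2 CPM in Control. Endothelial cells, with 15.7 and 13.4 CPM in Diabetic and 19.9 and 20.6 CPM in Control, were below all 3 of these classes in every library. Microglia or macrophages exceeded endothelial cells by 2.49 ± 0.35 on the log2 scale (edgeR adjusted p = 8.53e-08), bipolar cells by 1.84 ± 0.32 (adjusted p = 3.50e-06) and Müller glia by 1.09 ± 0.29 (adjusted p = 0.000907). Bipolar cells had the highest mean CPM, 76.2 ± 61.7 (SD, n = 4), but in the fit they lay below microglia or macrophages by -0.65 ± 0.37 (edgeR adjusted p = 0.145), and 1 Control 2 cell held 10 of its library's 37 bipolar UMIs. Without Control 2 this difference was -1.36 (adjusted p = 0.00484). Microglia or macrophages over Müller glia came to 1.40 ± 0.35 (edgeR adjusted p = 0.000885; 0.92 and adjusted p = 0.0765 without Diabetic 2). Pericytes or smooth muscle averaged 7.91 ± 6.01 CPM and rods 2.64 ± 0.42 CPM (SD, n = 4), rods standing under endothelial cells by a log2 difference of -2.85 ± 0.27 (edgeR adjusted p = 3.13e-13). Cones had 1 UMI in 761622, a ratio to endothelial cells of 0.0800 with an exact 95% interval of 0.00201 to 0.451 that covers counting error only.

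**Figure D2:**
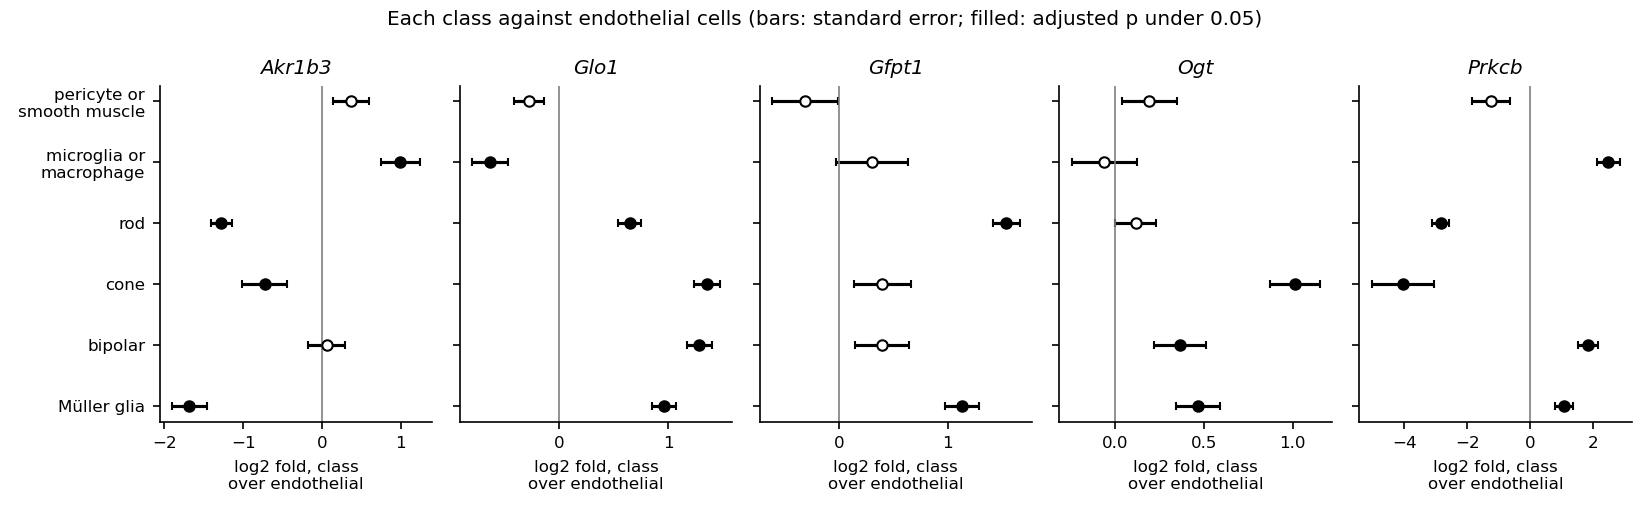
Log2 difference of each class from endothelial cells (horizontal axes) for the 5 genes tested between classes. Bars are the standard errors of edgeR's fit over 28 profiles of class and library. Filled points have an edgeR adjusted p under 0.05. Gfpt1 in rods lies at 1.54, Glo1 in cones at 1.36 and Prkcb in microglia or macrophages at 2.49, and the cone point of Prkcb rests on 1 UMI.

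After each cell was thinned to 1000 UMIs, Glo1 was found in 19.3% to 23.2% and Ogt in 16.5% to 18.7% of endothelial cells of a library. Akr1b3 was found in 2.91% to 5.34%, Gfpt1 in 2.62% to 5.13%, Prkcb in 1.41% to 2.43% and Sord in 0.188% to 0.821%. The Sord shares rested on only 2 and 2 cells in Diabetic and 4 and 1 cells in Control. Without thinning, the shares were 49.4% to 58.1% for Glo1, 46.2% to 52.4% for Ogt, 14.6% to 21.8% for Akr1b3, 12.03% to 15.8% for Gfpt1, 5.38% to 10.4% for Prkcb and 1.49% to 5.54% for Sord. For Prkcb, rods and cones served as the background: its thinned share was 0.275% to 0.735% in rods and 0 of 17 to 54 cones of a library, at median depths of 3477 to 6046 UMIs in rods, 2680 to 7410 in cones and 2885 to 4222 in endothelial cells. The endothelial Prkcb share lay above that of rods in every library. Rods and cones had the lowest mean Prkcb levels in these same data, so this order repeats the levels above and is not separate evidence.

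The start-site windows of Gfpt1 and Prkcb are printed because rods had the highest level of Gfpt1 and a Prkcb level below that of endothelial cells. Each window runs from 250 bases before to 50 bases after the RefSeq start (GRCm38.p6, plus strand, chr6:87042596-87042895 and chr7:122288875-122289174). Capitals mark the GC box, GGGCGG on either strand, where overlapping matches run together.
Gfpt1: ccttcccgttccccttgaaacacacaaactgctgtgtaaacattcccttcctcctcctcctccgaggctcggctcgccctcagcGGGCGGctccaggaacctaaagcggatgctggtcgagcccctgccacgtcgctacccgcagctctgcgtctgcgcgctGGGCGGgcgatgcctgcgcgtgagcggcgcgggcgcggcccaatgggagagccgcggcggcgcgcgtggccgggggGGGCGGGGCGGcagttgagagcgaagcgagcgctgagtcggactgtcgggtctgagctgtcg
Prkcb: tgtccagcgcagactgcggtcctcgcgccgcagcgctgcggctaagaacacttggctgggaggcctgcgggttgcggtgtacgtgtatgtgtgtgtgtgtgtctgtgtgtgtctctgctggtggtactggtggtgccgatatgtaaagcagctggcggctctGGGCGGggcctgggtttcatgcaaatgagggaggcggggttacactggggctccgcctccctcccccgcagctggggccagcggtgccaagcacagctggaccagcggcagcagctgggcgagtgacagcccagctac
The Gfpt1 window held 4 GC boxes in 70.3% G or C, and the Prkcb window 1 in 65.3%, where the median of all 32817 windows was 52.7% and 35.6% of them held at least 1 box on either strand. Neither window held TAATCC, the core bound by the photoreceptor factor CRX, or GAGGAAGT, a core bound by the myeloid factor PU.1, which stand on either strand in 7.06% and 3.2% of all windows. RefSeq windows were matched for 5 of the 6 genes, and those of the other 3 also held neither core. A missing match says only that these letters are not in the window.

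Diabetic against Control was tested in 34 of the 42 pairs of gene and class, and 1 was called by edgeR's quasi-likelihood test, Sord in rods. In rods 1 of 6 genes was thus higher and 0 lower, against 5.9% and 5.23% of all 16624 genes tested, and 3 (Sord, Gfpt1 and Glo1) had an unadjusted p under 0.05. In endothelial cells 0 of 6 genes were called, against 2.11% higher and 1.19% lower of 11543 genes (3.3% in all), with 0 at an unadjusted p under 0.05 and 0 by DESeq2. Müller glia had 0 of 6 called, against 0.432% of all genes higher and 0.0216% lower (0.453% in all). Bipolar cells had 0 of 5 called, against 0.0208% higher and 0.125% lower (0.146% in all), and cones 0 of 3, against 0.237% and 0.29% (0.527% in all). Microglia or macrophages had 0 of 4 called, against 1.5% higher and 0.693% lower (2.19% in all), and pericytes or smooth muscle 0 of 4, against 0.193% and 0.129% (0.322% in all). In these 5 classes 1, 1, 0, 1 and 0 of the genes had an unadjusted edgeR p under 0.05, each of them Prkcb, and DESeq2 called 0. The difference of the Diabetic effect between classes was called for 0 of 5 genes by edgeR, against 1.53% of 9811 genes for any class, 1.47% for rods, 0.448% for microglia or macrophages, 0.387% for Müller glia, 0.102% for pericytes or smooth muscle, 0.0917% for cones and 0.0612% for bipolar cells. In the test of any class 1 of the 5, Prkcb, had an unadjusted p under 0.05, and no other tool was run for it.

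**Figure D3:**
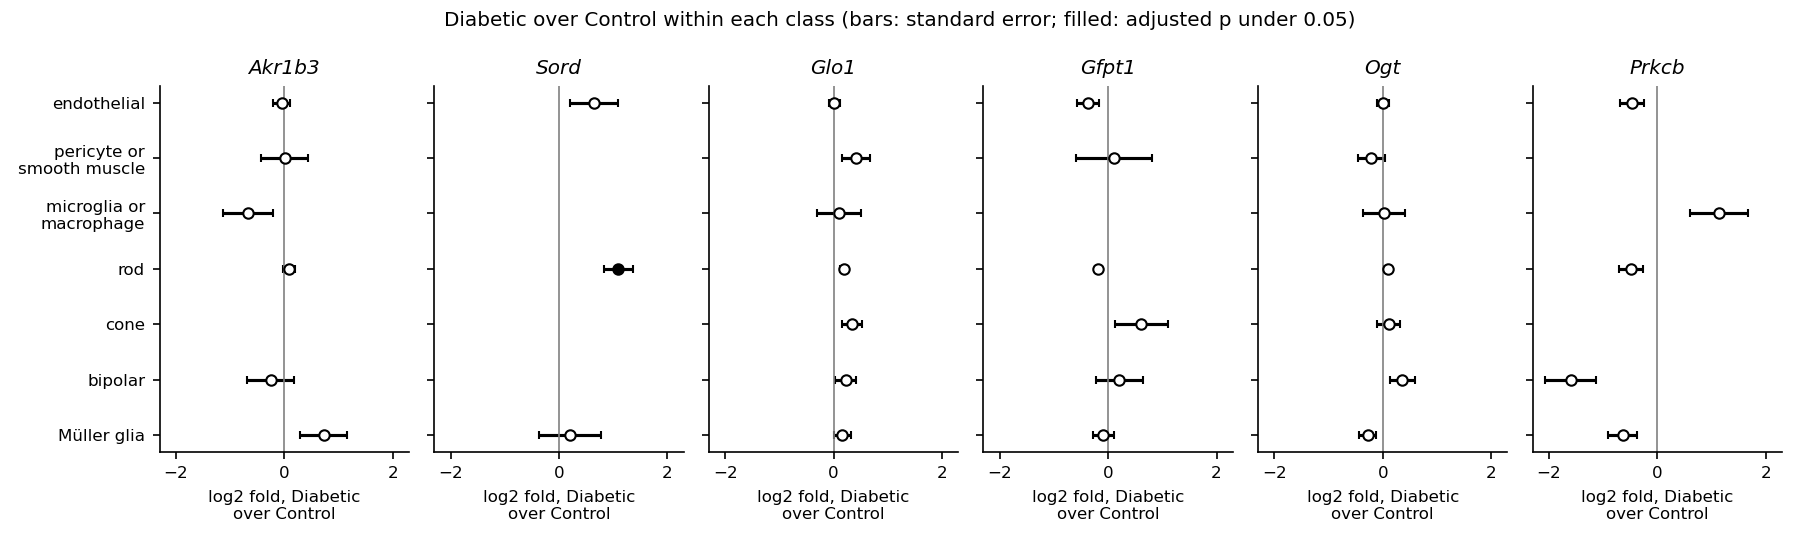
Log2 fold of Diabetic over Control for each gene and class (horizontal axes), with the standard error of edgeR's fit to 2 libraries a group; filled points have an adjusted p under 0.05 and pairs under the count filter are left blank. Sord in rods, at 1.10, is the 1 filled point.

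Sord in rods had 71 and 63 UMIs in Diabetic, or 2.22 and 2.702 CPM, and 42 and 19 UMIs in Control, or 1.12 and 1.00 CPM. Both Diabetic values were above both Control values and the exact 95% Poisson intervals of the groups did not touch, with 1.73 to 2.80 and 2.08 to 3.46 CPM in Diabetic and 0.810 to 1.52 and 0.600 to 1.56 CPM in Control. Diabetic libraries also lay above Control libraries for 40.8% of rod genes of at least 5 CPM, a level that Sord did not reach in rods. The fold was 1.10 ± 0.27 on the log2 scale (edgeR adjusted p = 0.0447), while DESeq2 gave no adjusted p for this gene. The call did not survive the removal of any 1 library, with adjusted p-values of 0.140 without Diabetic 1, 0.210 without Diabetic 2, 0.0720 without Control 1 and 0.0835 without Control 2, while the fold stayed between 0.97 and 1.23. The UMIs were spread over 66 and 59 cells in Diabetic and 42 and 16 cells in Control, with at most 2 in any cell. Markers of the other 6 classes in rods, multiplied by those classes' own Sord levels, would account for 0.519 and 1.38 CPM in Diabetic and 0.376 and 0.531 CPM in Control. Subtracting these left 1.70 and 1.32 CPM in Diabetic and 0.748 and 0.465 CPM in Control. Ungated cells and classes with too few cells to test were not in this sum. Its source levels rested on few UMIs, in Müller glia on 4 and 14 in Diabetic and 9 and 14 in Control. The part of RNA from other classes in the difference was not tested further.

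No other polyol difference between the groups passed the test. Akr1b3 in endothelial cells gave -0.05 ± 0.15 (edgeR adjusted p = 0.918) and in rods, at 24.1 and 20.2 CPM in Diabetic and 20.5 and 18.6 CPM in Control, 0.09 ± 0.11 (adjusted p = 0.661). In Müller glia the Diabetic libraries, at 23.9 and 16.9 CPM, were above the Control libraries, at 10.5 and 15.0 CPM, as for 19.6% of all Müller glia genes of at least 5 CPM, and these values came from 16 and 10 UMIs in Diabetic and 10 and 13 in Control (0.72 ± 0.44, edgeR adjusted p = 0.572). In microglia or macrophages both Diabetic values lay under both Control values, as for 18% of all genes of at least 5 CPM (-0.68 ± 0.46, edgeR adjusted p = 0.669). Sord in endothelial cells gave 0.65 ± 0.44 (edgeR adjusted p = 0.520) from 31 and 33 UMIs in Diabetic and 9 and 9 in Control.

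In the hexosamine path, Gfpt1 in endothelial cells was lower in the Diabetic mean, 32.8 ± 4.79 CPM, than in the Control mean, 41.4 ± 13.3 CPM (SD, n = 2 each), with overlapping libraries and a log2 fold of -0.37 ± 0.21 (edgeR adjusted p = 0.421). Without Control 1 the fold was 0.04 (adjusted p = 0.968). Gfpt1 in rods gave -0.18 ± 0.07 (edgeR adjusted p = 0.126), and in cones, at 71.9 and 83.4 CPM in Diabetic and 64.3 and 26.7 CPM in Control, 0.61 ± 0.49 (adjusted p = 0.809). Ogt was almost level in endothelial cells, at 0.01 ± 0.11 (edgeR adjusted p = 0.980). Its groups did not overlap in 3 classes: Diabetic was higher in rods (220 and 217 CPM in Diabetic and 194 and 189 CPM in Control, a separation seen in that direction for 40.8% of all rod genes of at least 5 CPM) and in bipolar cells (0.36 ± 0.23, adjusted p = 0.818; 19.7% of all genes), and lower in Müller glia (-0.27 ± 0.16, adjusted p = 0.554; 21.5% of all genes). None of these passed the test.

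Glo1 had Diabetic libraries above Control libraries in 4 of the 7 classes. Rods had 450 and 427 CPM in Diabetic and 360 and 361 CPM in Control, and pericytes or smooth muscle had 239 and 245 CPM in Diabetic and 172 and 172 CPM in Control. Cones and bipolar cells, given above, were the other 2. Such a separation was common, since it held in the same direction for 40.8% of genes in rods, 21.3% in pericytes or smooth muscle, 21.9% in cones and 19.7% in bipolar cells. By edgeR the log2 folds were 0.19 ± 0.07 in rods (adjusted p = 0.123), 0.41 ± 0.25 in pericytes or smooth muscle (adjusted p = 0.829), 0.34 ± 0.18 in cones (adjusted p = 0.586) and 0.23 ± 0.19 in bipolar cells (adjusted p = 0.870), and none passed. Endothelial Glo1 overlapped between the groups, at 230 ± 14.002 CPM in Diabetic and 228 ± 10.4 CPM in Control (SD, n = 2 each; 0.01 ± 0.10, edgeR adjusted p = 0.979).

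The Prkcb values differed in direction among the classes, though none passed the test. Microglia or macrophages had 23 and 24 UMIs in Diabetic and 5 and 4 UMIs in Control (1.14 ± 0.54 on the log2 scale, unadjusted p = 0.0492, edgeR adjusted p = 0.454). Bipolar cells had 11 and 4 UMIs in Diabetic and 22 and 37 UMIs in Control (-1.60 ± 0.47, unadjusted p = 0.00228, edgeR adjusted p = 0.283). The groups did not overlap in either class, as was so for 19.6% of microglial genes with Diabetic higher and 16.3% of bipolar genes with Diabetic lower. Müller glia (-0.64 ± 0.27, edgeR adjusted p = 0.373), endothelial cells (-0.46 ± 0.23, adjusted p = 0.356) and rods (-0.49 ± 0.22, adjusted p = 0.195) also had both Diabetic values under both Control values without passing the test, an order shared by 21.5%, 23.4% and 22.8% of the genes of these classes. The microglial effect minus the endothelial effect was 1.79 ± 0.67 (unadjusted p = 0.0100, edgeR adjusted p = 0.460), and the test of any difference between classes gave an unadjusted p of 0.0128 and an adjusted p of 0.259.

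**Figure D4:**
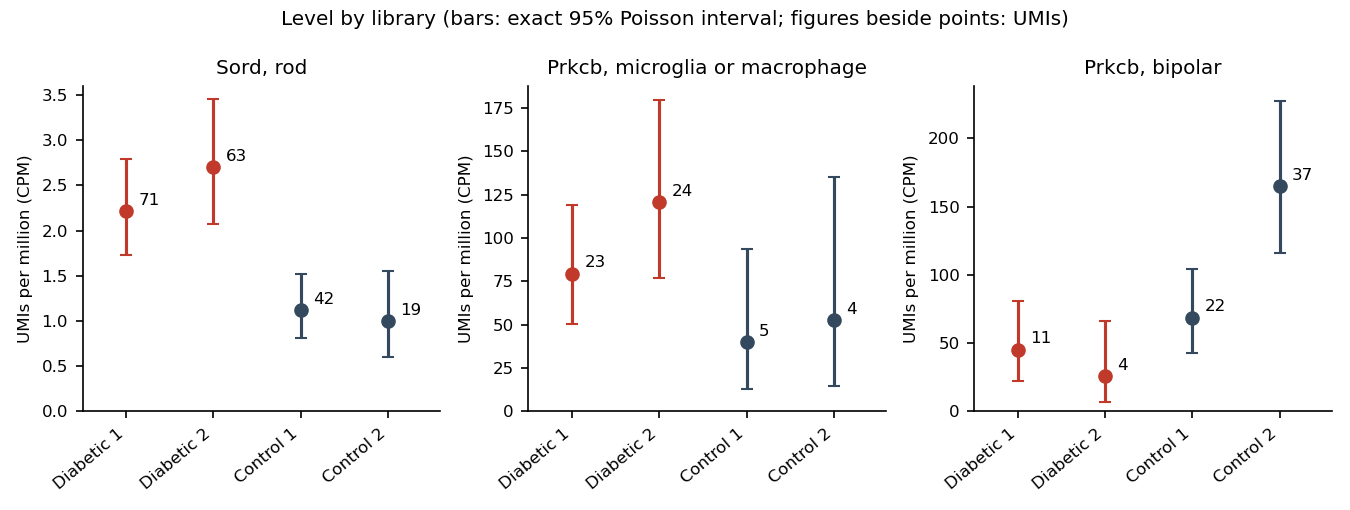
Level in CPM (vertical axes, from 0) of Sord in rods and of Prkcb in microglia or macrophages and in bipolar cells, in the 2 Diabetic (red) and 2 Control (dark) libraries, with exact 95% Poisson intervals and the UMI count beside each point. The Sord intervals of the groups do not touch, whereas the microglial Prkcb intervals rest on 4 to 24 UMIs.

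The bipolar value of Prkcb depended on single libraries. Its log2 fold was -2.15 without Control 1 (edgeR adjusted p = 0.00093) and -0.90 without Control 2 (adjusted p = 0.984), and -0.89 with classes taken from clusters (adjusted p = 0.0351). Among bipolar cells with ON-type markers, Prkcb had 39.9 and 20.8 CPM in Diabetic and 65.1 and 172 CPM in Control. The Control 2 value came from 32 UMIs in 11 cells. As given above, 1 cell held a large part of the bipolar Prkcb UMIs of that library. In the few cells with OFF-type markers it had 153 and 114 CPM in Diabetic, from 2 and 1 UMIs, and 132 and 138 CPM in Control, from 3 and 5 UMIs. The groups thus overlapped among OFF-type cells, at counts too low for a comparison. ON-type cells were 91.8% and 88.9% of the bipolar cells in Diabetic and 87.3% and 75.0% in Control. In the microglial class the median depth was 4534 and 3894 UMIs a cell in Diabetic and 1416 and 1364 in Control, and the part of this depth gap in the Prkcb difference was not tested.

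A cluster of endothelial cells held 251 and 125 cells in Diabetic and 2 and 1 in Control, and was led by Lcn2, Lrg1 and Ackr1. In its cells Ogt had 148 and 119 CPM in the Diabetic libraries, against 195 and 189 CPM in the other endothelial cells of the same libraries. Akr1b3 had 42.1 and 35.0 CPM there and 42.6 and 55.0 CPM in the others, Prkcb 10.4 and 13.1 CPM there and 18.3 and 13.6 CPM in the others, and Glo1 212 and 219 CPM there and 253 and 220 CPM in the others. Ogt was thus lower in the cluster in both libraries. The values of Akr1b3 in Diabetic 1, and of Prkcb and Glo1 in Diabetic 2, were nearly equal in the cluster and outside it. The share of all genes that were lower in the cluster is not given here. Sord had 8.43 and 13.1 CPM there and 5.77 and 9.09 CPM in the others, and Gfpt1 33.1 and 33.3 CPM there and 37.8 and 27.3 CPM in the others. No test was made, since the cells were grouped by their own expression.

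The 5 side paths as listed hold 57 genes, 51 of them besides the 6 described so far. Of these 51, 44 were tested in endothelial cells, where 0 were higher and 1 was lower in Diabetic, against 2.11% higher and 1.19% lower of all genes. An unadjusted edgeR p under 0.05 was found for 4 of them, and DESeq2 called 0. Their median log2 fold was 0.11, against -0.01 for all genes tested. The 1 call was Marcks, a membrane-bound substrate of protein kinase C, with 123 and 121 CPM in Diabetic and 173 and 172 CPM in Control (-0.50 ± 0.10, edgeR adjusted p = 0.0245). It was lost without Diabetic 1 (adjusted p = 0.127), Diabetic 2 (adjusted p = 0.124) or Control 1 (adjusted p = 0.0587), and without the cluster of Diabetic endothelial cells its fold was -0.33 (adjusted p = 0.278). In rods Marcks gave a fold of the opposite sign that did not pass edgeR's test (0.39 ± 0.12, adjusted p = 0.0825).

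**Figure D5:**
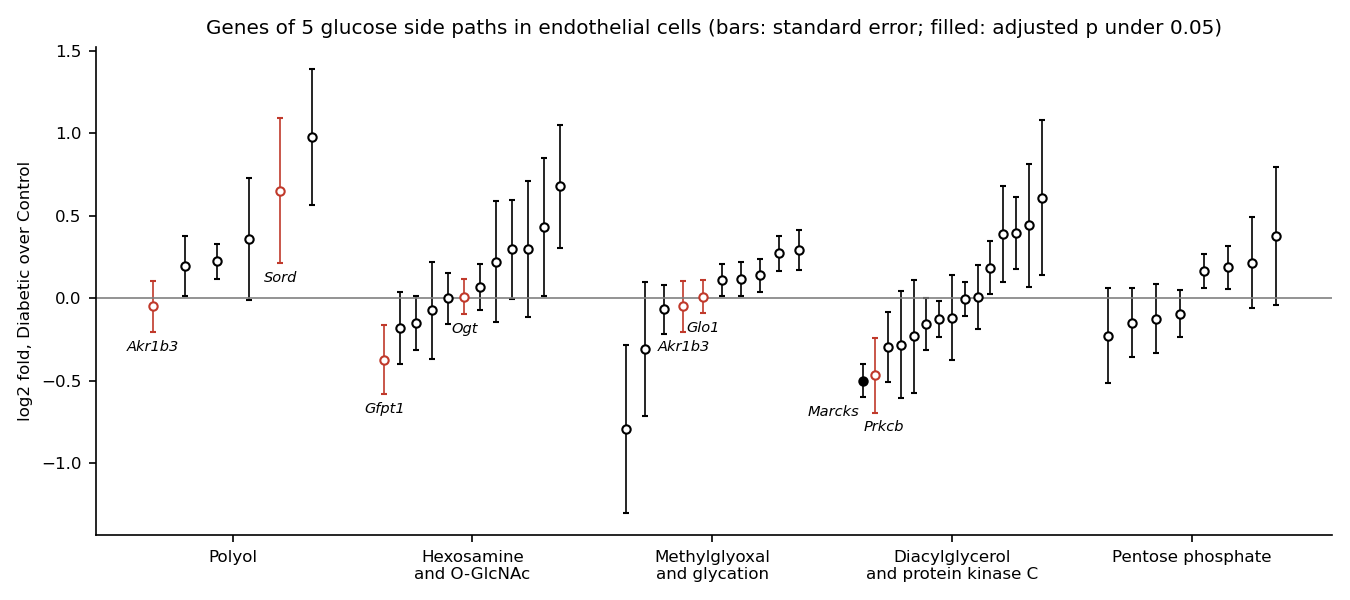
Log2 fold of Diabetic over Control in endothelial cells (vertical axis) for the tested genes of 5 side paths, ordered by fold within each path, with standard errors; the genes described here are in red and filled points have an edgeR adjusted p under 0.05. Marcks, at -0.50, is the 1 filled point.

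By path, and with the 6 genes counted in their own paths, the median fold of the tested polyol genes in endothelial cells was 0.29 over 6 genes, with 5 of them positive. Akr1a1, aldehyde reductase, had 379 and 395 CPM in Diabetic and 315 and 348 CPM in Control (0.22 ± 0.11, edgeR adjusted p = 0.340), and Khk, ketohexokinase, gave 0.20 ± 0.18 (adjusted p = 0.662). The 12 hexosamine genes had a median of 0.04, with Nagk, N-acetylglucosamine kinase, at -0.18 ± 0.22 (edgeR adjusted p = 0.752). Among 10 methylglyoxal and glycation genes the median was 0.06; Ddost, a subunit of the oligosaccharyltransferase that also binds glycation products, had 76.1 and 77.5 CPM in Diabetic and 62.6 and 62.5 CPM in Control (0.29 ± 0.12, edgeR adjusted p = 0.271), and Esd, which hydrolyses S-formylglutathione, gave 0.27 ± 0.11 (adjusted p = 0.229). The 15 diacylglycerol and protein kinase C genes had a median of -0.12 and the 8 pentose phosphate genes one of 0.04, with Pgd at -0.23 ± 0.29 (edgeR adjusted p = 0.765) and Pgls at 0.19 ± 0.13 (adjusted p = 0.533). None of these named genes other than Marcks passed.

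In rods 47 of the 51 other genes were tested, and edgeR called 0 higher and 1, Dgke, lower, against 5.9% and 5.23% of all rod genes, while 10 had an unadjusted p under 0.05. With the 6 genes included, DESeq2 called 3 of the 41 to which it gave an adjusted p. Dgke, a diacylglycerol kinase that removes the PKC activator, had 417 and 452 CPM in Diabetic and 513 and 516 CPM in Control (-0.34 ± 0.07, edgeR adjusted p = 0.0288). The call was lost without Control 1 (adjusted p = 0.0554), Control 2 (adjusted p = 0.0831) or Diabetic 1 (adjusted p = 0.0981). In the other 5 classes edgeR called 0 of the 16 to 39 other genes tested, and 0 to 6 of them had an unadjusted p under 0.05. DESeq2 also called 0 in these classes, but in Müller glia it gave an adjusted p to 9 of 45 path genes only.

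The class with the highest mean was also found for the other genes of each path. Those named next were chosen after their levels were seen. Microglia or macrophages had the highest mean for 2 of the 4 other polyol genes of at least 20 CPM, among them Dcxr, xylulose reductase, at 65.4 ± 21.3 CPM, and for 4 of the 8 pentose phosphate genes. Bipolar cells had the highest mean for 5 of the 8 other methylglyoxal and glycation genes, among them Tpi1, triose phosphate isomerase, at 894 ± 60.8 CPM, and Hagh, glyoxalase 2, at 167 ± 22.1 CPM. Of the 9 other hexosamine genes of at least 20 CPM, 4 had their highest mean in microglia or macrophages and 2 in Müller glia. Cones, endothelial cells and rods each led for 1. The gene led by cones, like Ogt, was Uap1, which makes UDP-GlcNAc (145 ± 25.7 CPM). Oga, which removes the O-GlcNAc that Ogt adds, was highest in Müller glia (130.5 ± 7.67 CPM). The counts by path are given without the share of all genes that were highest in each class. They therefore cannot show that a path favours a class. The protein kinase C genes Prkca, Prkch and Prkcd peaked in different classes, Prkca in bipolar cells (1527 ± 378 CPM), Prkch in endothelial cells (127 ± 2.13 CPM) and Prkcd in microglia or macrophages (135 ± 70.9 CPM; SD over 4 libraries).

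The genes whose levels were most like each of the 6 over the 28 profiles of class and library were found by Pearson's correlation of log2 CPM among 11480 genes. The profiles share libraries and class composition, so these values are descriptive. Glo1 was most like Galnt13 (0.94), Klhdc8a (0.94) and Rragb (0.93), and Ogt was most like Elovl6 (0.91), Tafa3 (0.88) and Sar1b (0.86). For Gfpt1 the nearest were Cpeb3 (0.90), Cadm1 (0.81) and Tecpr2 (0.80), and for Prkcb St6galnac4 (0.89), Smad3 (0.87) and Tmcc3 (0.85). Akr1b3 came closest to Gm38042 (0.83), Zfhx3 (0.80) and Arhgdib (0.77). Sord came closest to Psenen (0.80), Tmem176a (0.77) and Capza2 (0.75). All 6 of these like genes were highest in microglia or macrophages. The microglial Sord level rested on 3 and 2 UMIs in Diabetic and 6 and 1 in Control, so counting error enters its correlations.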

How the data were processed

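Raw UMI counts per gene and called cell were deposited by the authors, made with Cell Ranger 7.0.0 per the file headers. The submitters' processing notes also name STAR 2.7.10b and the build mm10. The counts carried no normalization. Barcodes needed 500 UMIs, 300 genes and a mitochondrial share of no more than 20%, which left 7891 and 3519 in Diabetic and 5868 and 2438 in Control. Scrublet in scanpy 1.11.5 then removed 498 and 99 Diabetic and 275 and 48 Control barcodes at an expected rate of 0.8% per 1000 cells in every library. A cell entered a class when at least 3 of its markers were detected, their summed share reached that class's minimum and those of the other classes stayed under their limits. These limits were set after the cells had been seen, and the microglia, cone and rod limits were loosened so that each class had at least 20 cells in every library. Ungated cells, 30.5% and 32.2% in Diabetic and 22.9% and 26.8% in Control, were left out.

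Counts were summed per class and library and tested with edgeR 4.0.16 in R 4.3.3 (TMM, filterByExpr, quasi-likelihood F test, two-sided), with Benjamini-Hochberg adjustment over all genes tested and a call at an adjusted p under 0.05. Diabetic was compared with Control within each class, classes were compared in 1 fit over 28 profiles with library as a term, and the interaction tested the difference of the Diabetic effect between classes. DESeq2 1.42.0 was the second tool. CPM were the summed counts over the class total, with no pseudocount. Correlations of profiles used log2(CPM + 1) and genes reaching 20 CPM in a class. Thinning to 1000 UMIs left out shallower cells, 125 and 45 Diabetic and 50 and 25 Control endothelial cells. Poisson and binomial intervals cover counting error only. The fits were tested on simulated data with known changes.

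Named genes were the 6 members, every gene of the 5 path lists called in any class for Diabetic against Control, for each list with none called in endothelial cells the 2 genes with the largest absolute fold there at a mean of at least 20 CPM, and the 3 most similar genes of each member. Members and lists were chosen with earlier results of these data known. Genes overlapping Glo1 (Dnah8 and others) and Prkcb on the annotation have rows of their own, and how shared reads were counted is not given in the sources used here. Replicate numbers in the labels carry no stated pairing.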

Additional observations from a re-analysis of the deposited data

How the results depend on the processing

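Sord in rods was called in 1 of 34 pairs. The number of pairs called was 0 with DESeq2, without Scrublet or with a stricter gate, and 0 to 1 with 1 library left out. The Sord fold then lay between 0.97 and 1.23, and was 1.10 without Scrublet, 1.05 with the stricter gate and 1.03 with classes from clusters, none of which kept the call. The 1 pair called without Control 1, and with classes from clusters, was Prkcb in bipolar cells. With the replicate block 3 pairs were called, Sord, Gfpt1 and Glo1 in rods. Same-numbered libraries deviated together in endothelial cells (correlation 0.44) and rods (0.36) but not in the other classes (-0.02 to 0.08), and with 2 pairs this does not establish a pairing. All genes called numbered 381 in endothelial cells and 1850 in rods. They numbered 1304 and 4752 with the block, 848 and 3141 with no filter, and 268 to 597 and 625 to 1500 with 1 library left out. In endothelial cells DESeq2 called 229, and 37 were called without the Diabetic cluster, an alternative chosen after seeing the data.

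Signs turned as follows, on the log2 scale, Diabetic over Control. With classes from clusters the folds were -0.19 for Sord in Müller glia, -0.047 for Glo1 in bipolar cells and -0.0031 in endothelial cells, -0.12 for Gfpt1 in cones and -0.22 in pericytes, -0.071 for Ogt in endothelial cells and -0.0067 in microglia, and 0.063 for Nagk and 0.067 for Pgd in endothelial cells. With the stricter gate they were -0.050 for Glo1 in Müller glia and -0.35 in pericytes, and -0.086 for Ogt in endothelial cells and -0.016 in microglia. Akr1b3 in pericytes was -0.011 without Scrublet and -0.10 at 10% mitochondrial UMIs. Without the Diabetic cluster, Akr1b3 was 0.023 and Pgls -0.053 in endothelial cells. Between classes, clusters gave -0.78 for Akr1b3 in bipolar over endothelial cells, -0.027 for Glo1 in bipolar cells over Müller glia, -0.24 for Gfpt1 in Müller glia over cones and -0.021 in microglia over endothelial cells. The stricter gate gave -0.0099 for Akr1b3 in bipolar over endothelial cells, -0.032 for Glo1 in cones over bipolar cells, -0.0054 for Gfpt1 in microglia over endothelial cells, 0.19 for Ogt in bipolar cells over Müller glia and -0.034 in pericytes over rods. The cause was not tested.

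With 1 library left out, ranges crossed 0 for Akr1b3 in bipolar cells (-0.91 to 0.049), endothelial cells (-0.15 to 0.071), pericytes (-0.70 to 0.44) and rods (-0.058 to 0.21), Sord in Müller glia (-1.04 to 0.91), and Glo1 in endothelial cells (-0.049 to 0.067) and microglia (-0.23 to 0.44). They did so for Gfpt1 in Müller glia (-0.28 to 0.049), bipolar cells (-0.28 to 0.82), endothelial cells (-0.61 to 0.037) and pericytes (-0.48 to 2.22), and for Ogt in cones (-0.18 to 0.50), endothelial cells (-0.076 to 0.12), microglia (-0.28 to 0.30) and pericytes (-0.41 to 0.084). The same held for Nagk (-0.39 to 0.18) and Pgd (-0.72 to 0.28) in endothelial cells. Between classes it held for Akr1b3 in bipolar over endothelial cells (-0.057 to 0.22), Gfpt1 in cones over bipolar cells (-0.17 to 0.075) and bipolar cells over microglia (-0.11 to 0.24), and Ogt in bipolar cells over Müller glia (-0.26 to 0.098), pericytes over rods (-0.027 to 0.21) and endothelial cells over microglia (-0.047 to 0.22). None of these was a called difference with all libraries. A lone library left in a group was assumed to vary like the others.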

Other observations

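Classes too small to test also held the genes. The 18 gated pigment epithelial cells had 3 and 1 Sord UMIs in 24529 and 21816 UMIs of the Diabetic libraries. In the Control libraries they had 1 and 1 in 15100 and 2274 UMIs. These came to 122 and 45.8 CPM in Diabetic and 66.2 and 440 CPM in Control, above the microglial Sord mean of 20.4 CPM. The 15 and 3 neutrophils of the Diabetic libraries had 8 and 3 Prkcb UMIs, or 73.7 and 63.9 CPM, and 0 UMIs of Akr1b3 and Sord, while Control had 1 neutrophil. These counts allow no comparison between the groups.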
